A study of Drosophila melanogaster with 7 samples.

Results

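The 4 glia-linked genes bnb, Eaat2, Ndae1 and Tret1-1 were followed in the larval brain of Drosophila melanogaster after knockdown of the chromatin remodeller ISWI with the elav-GAL4 driver. They were taken by name from the authors' deposited table, where they are 4 of 2366 listed genes. They were selected on their adjusted p in that deposited table, which was under 0.05 for each, so the values below describe them and are no test of them. The measured tissue was the central brain and ventral nerve cord of larvae in the mid-third instar, raised at 25 °C and taken 4 days after the eggs were laid. In the 4 ISWI RNAi libraries the larvae were elav-GAL4>UAS-ISWI RNAi, in which a driver taken from a gene of neurons expresses a hairpin against Iswi. Which cells of the brain lost Iswi was not observed, so it is unknown whether glia were among them. The 3 control libraries were elav-GAL4; + and carried the same driver with no hairpin. About 40 brains went into each library, and each group is 1 genotype, so stock differences and the knockdown cannot be told apart. The table's header calls the control attp2, a name the labels do not use.

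Glia ensheath the fly brain, feed its neurons and clear the ions and transmitters that neurons release. An outer layer of perineurial and subperineurial glia forms the barrier to the hemolymph, whose main sugar is trehalose. Inside it, cortex glia wrap cell bodies, and ensheathing and astrocyte-like glia border and enter the neuropil. Tret1-1 is a trehalose carrier of the outer layer, Eaat2 carries acidic amino acids and taurine, Ndae1 exchanges sodium and bicarbonate against chloride and so acts on cell pH, and bnb (bangles and beads) was first described as a gene of developing glia. Whole brains were measured, so the cell type that held each RNA was not observed, and the glial label could not be checked for these 4 genes. In such bulk RNA, fewer cells of a type and less RNA per cell cannot be told apart.

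The deposited comparison gives 1 log2 fold change of ISWI RNAi over control per gene, with a p and an adjusted p, and a mean normalised count over all 7 libraries. It lists genes with p under 0.1, which are 21.5% of those tested. No value of a single library entered this work, so library depths and the order of libraries within a group are unknown. In the authors' deposited table Iswi itself fell by 2.03 (log2; 95% interval -2.15 to -1.90). Of the 10775 genes whose tests the adjusted p values imply, 4.65% were called at an adjusted p under 0.05, 2.06% higher and 2.59% lower with ISWI RNAi. All 4 genes are among these calls because they were chosen so, and nothing is read from that count. The standard errors and 95% intervals below were worked out from each deposited fold change and p, taken as a Wald test.

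Of the 4, bnb was higher and the 3 transporter genes were lower with ISWI RNAi. The change in bnb was 1.20-fold (95% interval 1.09 to 1.31), and the transporter genes stood at 81.3% to 83.7% of their control level. These are small changes beside the others called. Among all 501 calls of the authors' deposited table, the median size was 0.47 on the log2 scale, and between 15.2% and 23.4% of the calls were smaller than the change in 1 of these 4 genes.

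Eaat2 (FBgn0026438; chromosome 2L, 737212 to 744395, minus strand, build BDGP6) is 1 of 2 fly members of the glutamate transporter family, and its protein moves aspartate and taurine. In the authors' deposited table Eaat2 had a log2 fold change of -0.30 ± 0.08 (standard error worked out from p) and an adjusted p of 0.00533. The mean normalised count was 2240. With the deposited fold this corresponds to about 2039 in ISWI RNAi and 2508 in control libraries, which are group levels worked out from the mean and the fold, as for the genes below. ISWI RNAi brains thus held 81.3% of the control level of Eaat2 (95% interval 73.1% to 90.4%), the lowest of the 3 transporter genes. Its family partner Eaat1, the main glutamate carrier of astrocyte-like glia, was not among the listed genes, so its p was at least 0.1 or it was not tested.

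Ndae1 (FBgn0259111; chromosome 2L, 7223328 to 7249343, minus strand) encodes the sodium-driven anion exchanger. The authors' deposited table lists its log2 fold change as -0.27, which with its p gives a standard error of 0.07, and its adjusted p as 0.011. Its mean normalised count of 1295 corresponds to about 1191 in ISWI RNAi and 1435 in control libraries. The level with ISWI RNAi was 83.0% of control (95% interval 75.0% to 91.9%). Ae2, the other bicarbonate carrier of the same family on the lists used here, was not among the listed genes.

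Tret1-1 (FBgn0050035; chromosome 2R, 11665768 to 11674782, plus strand) takes up trehalose from the hemolymph. For Tret1-1 the authors' deposited table gives a log2 fold change of -0.26 (standard error 0.08) at an adjusted p of 0.0486. It lies just inside the threshold of 0.05, and the nearest glial marker outside it was Gli, at 0.110 in the same deposited table. The mean normalised count of 1177 corresponds to about 1086 in ISWI RNAi and 1298 in control libraries. ISWI RNAi brains held 83.7% of the control level (95% interval 74.6% to 93.8%). A gene of the same family, Tret1-2, starts 1.15 kb beyond the end of Tret1-1 on the same strand and was not listed. The sources used here do not show what Tret1-2 carries. They also do not say how reads that match both genes were assigned, so the count of Tret1-1 is uncertain to that extent.

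bnb (FBgn0001090; chromosome X, 18794246 to 18797687, minus strand) moved the other way. Here the authors' deposited table has a log2 fold change of 0.26 (standard error 0.07), at an adjusted p of 0.00623. The mean normalised count of 4311 corresponds to about 4638 in ISWI RNAi and 3874 in control libraries. The 95% intervals of the 3 transporter genes overlap one another and lie wholly below 0, while that of bnb (0.12 to 0.39) lies wholly above it. That each interval excludes 0 follows from choosing the genes by their adjusted p, and is no test of their direction. Centred on the median of listed genes of like mean count, Ndae1 stood at -0.13 (interval -0.28 to 0.01) and Tret1-1 at -0.12 (interval -0.28 to 0.05), so that both intervals include 0, while Eaat2 stood at -0.17 and bnb at 0.39 with intervals that do not. Those medians come from a table that ends at p of 0.1 and are no measure of all genes.

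**Figure D1:**
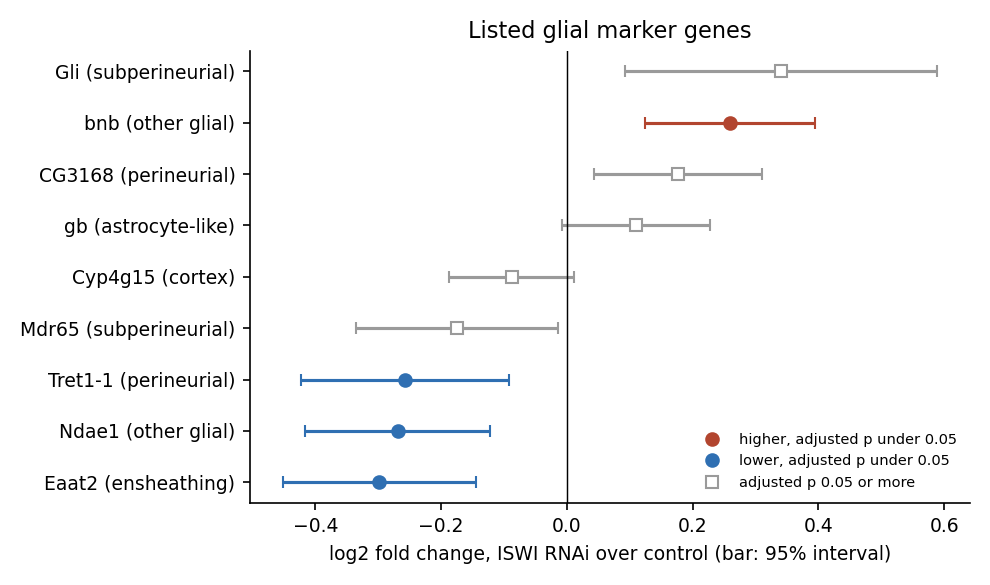
The log2 fold change of ISWI RNAi over control (x axis) is drawn for the 9 glial markers in the authors' deposited table, with 95% intervals worked out from the deposited p as bars; filled circles have an adjusted p under 0.05 and open squares do not. bnb sits at 0.26, and Tret1-1, Ndae1 and Eaat2 sit between -0.30 and -0.26, with intervals that overlap.

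Per kilobase of the deposited gene length, bnb had the highest mean level of the 4, 1581 normalised counts per kb over all libraries. Eaat2 followed with 561, Tret1-1 with 349 and Ndae1 with 184 normalised counts per kb. The order is that of levels and not of changes, and the gene that was higher with ISWI RNAi was also the most abundant. No spread over libraries stands behind these levels, so neighbours in this order could not be compared with an error.

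The precision of each change was close to that of other genes of its abundance. The implied standard errors were 1.11 times the median of listed genes with a mean count within 1.5 times of their own for bnb, 1.11 times for Eaat2, 0.965 times for Ndae1 and 1.07 times for Tret1-1. At the abundance of bnb, 43 of 194 listed genes of the authors' deposited table were called, 7 higher and 36 lower. Around Eaat2, 15 calls were higher and 56 lower among 347 listed genes in that deposited table. The counts were 26 higher and 59 lower of 458 listed around Ndae1, and 28 higher and 59 lower of 470 around Tret1-1. Over all 2312 tested genes listed, 222 were called higher and 279 lower. Higher calls had a median mean count of 168 and lower calls one of 946. At the abundance of bnb a higher call was thus in the minority, 7 of 43. As bnb was chosen for its call, nothing more is read from this. In size of change bnb ranked 23rd of 43 calls of like abundance and Eaat2 38th of 71, near the middle. Ndae1 ranked 55th of 85 and Tret1-1 67th of 87, in the smaller part.

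**Figure D2:**
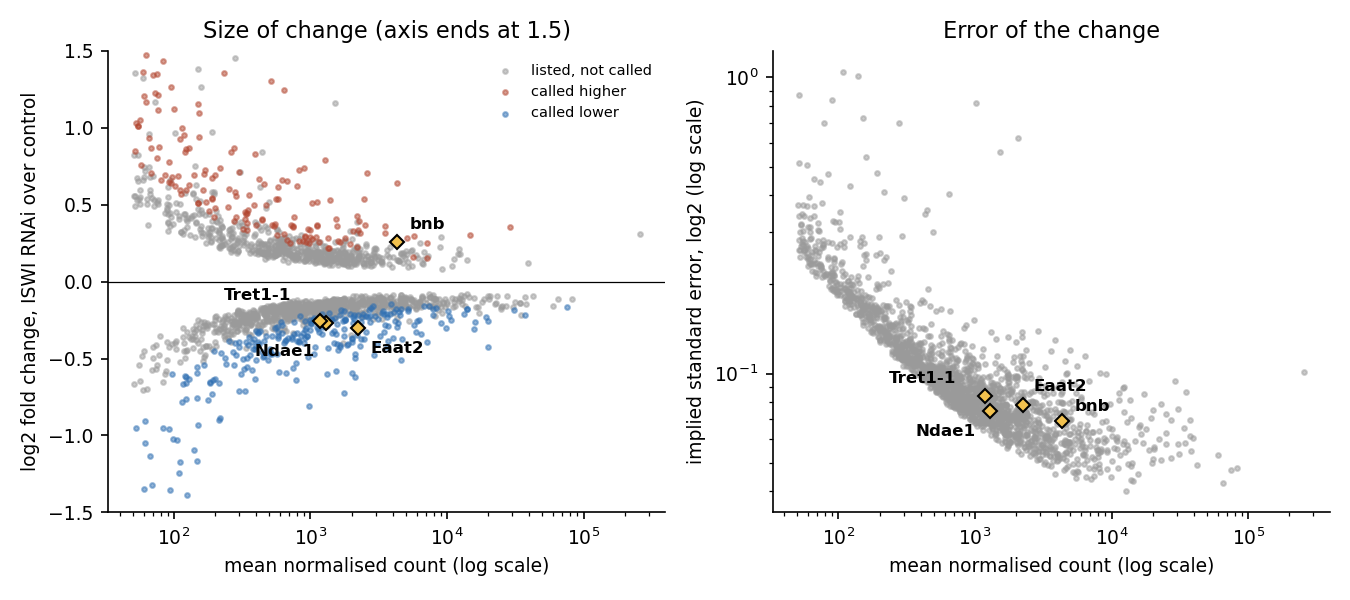
For listed genes whose mean count is 50 or more, the left panel plots the log2 fold change of ISWI RNAi over control against the mean normalised count (log axis, changes beyond 1.5 not drawn), and the right panel plots the implied standard error (both axes log); diamonds mark the 4 genes. They lie within the cloud of genes of their abundance, with standard errors of 0.07 to 0.08, and the empty band around 0 at left is where genes with p of 0.1 or more would lie.

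Among 38 glial markers of all layers, the authors' deposited table calls 1 higher and 3 lower, against 4.65% of all genes tested. These 4 are the genes described above, which were chosen for being called, so the count says nothing of glial markers in general. Another 5 were listed without passing. Gli (Gliotactin, of the junctions that seal the barrier) stood at 0.34 ± 0.13 (log2 fold change and standard error) in the authors' deposited table. CG3168, on the list as a perineurial gene, stood at 0.18 with an adjusted p of 0.127 in that deposited table. Mdr65, a drug efflux pump of the barrier, was at -0.17, the cortex glial Cyp4g15 at -0.09 and gb (genderblind, a glial amino acid exchanger subunit) at 0.11 in the same deposited table. Listed markers thus lay on both sides of 0 in the perineurial layer, with CG3168 positive and Tret1-1 negative, and in the subperineurial layer, with Gli positive and Mdr65 negative. The median over the 9 listed markers was -0.09, against -0.11 over all 2312 tested genes listed. The 9 include the 4 genes chosen for being called, so nothing is read from that median. None of the 6 pan-glial genes was listed, which include repo, the homeodomain factor that marks nearly all lateral glia, and nrv2, a sodium pump subunit. For genes as abundant as these 4, the smallest log2 fold change listed in either direction was 0.09 to 0.11 in size.

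Of 24 genes of amino acid transport, the authors' deposited table calls 0 higher and 2 lower, Eaat2 and CG5535, a member of the SLC7 family of cationic amino acid transporters. In the authors' deposited table CG5535 fell by 0.41 (log2, standard error 0.10, adjusted p 0.00107), to 75.0% of the control level. Over all genes tested 2.59% were called lower, and Eaat2 was chosen for its call, so nothing is read from the count of 2. The other 4 listed genes of this group did not pass. CG13248 was at -0.17, sbm (listed as CG9413) at -0.11 and gb at 0.11, while CG1139 had a mean count of 2.54, too low for its change to be read. Of 12 genes of the glutamate and GABA cycle, Eaat2 was the only call in the authors' deposited table, and it was chosen for that. VGAT, the vesicular GABA transporter of neurons, was at -0.16 with an adjusted p of 0.0917 there, and 0 of 7 enzymes of the cycle, such as glutamine synthetase Gs2, were listed.

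Ndae1, itself chosen for its call, was the only gene called among 17 genes of bicarbonate, proton and chloride transport in the authors' deposited table, a count near the background of 4.65%. The carbonic anhydrase CAH3 (listed as CG11284) was at -0.16, its relative CARPA (listed as CG1402) at 0.19 and the sodium-proton exchanger Nhe3 at -0.13 in the authors' deposited table, none of them past the threshold. The sodium pump genes and the cation-chloride cotransporters were not listed (0 of 4 and 0 of 3).

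Tret1-1, chosen in the same way, was the only call among 26 sugar transporter genes in the authors' deposited table, which is also near the background of 4.65%. Of the others, kumpel (listed as CG42235), a glial transporter of the SLC5 family, was at 0.12 with an adjusted p of 0.427, and sut3 had a mean count of 0.955 and took no part in the adjustment. The enzyme that splits trehalose was lower as well. In the authors' deposited table Treh (trehalase) fell by 0.40 (log2, standard error 0.05, adjusted p 4.1e-11), to 75.5% of the control level at a mean count of 3083. It was the only call among 20 genes of trehalose use, glycolysis and monocarboxylate transport, again a count near 4.65%. In the authors' deposited table the glycolytic genes Tpi, Eno, Pfk and Pgi stood at -0.19, -0.16, -0.13 and -0.13 and did not pass. The other 9 of 13 glycolytic genes, among them Ldh and Pgk, were not listed.

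**Figure D3:**
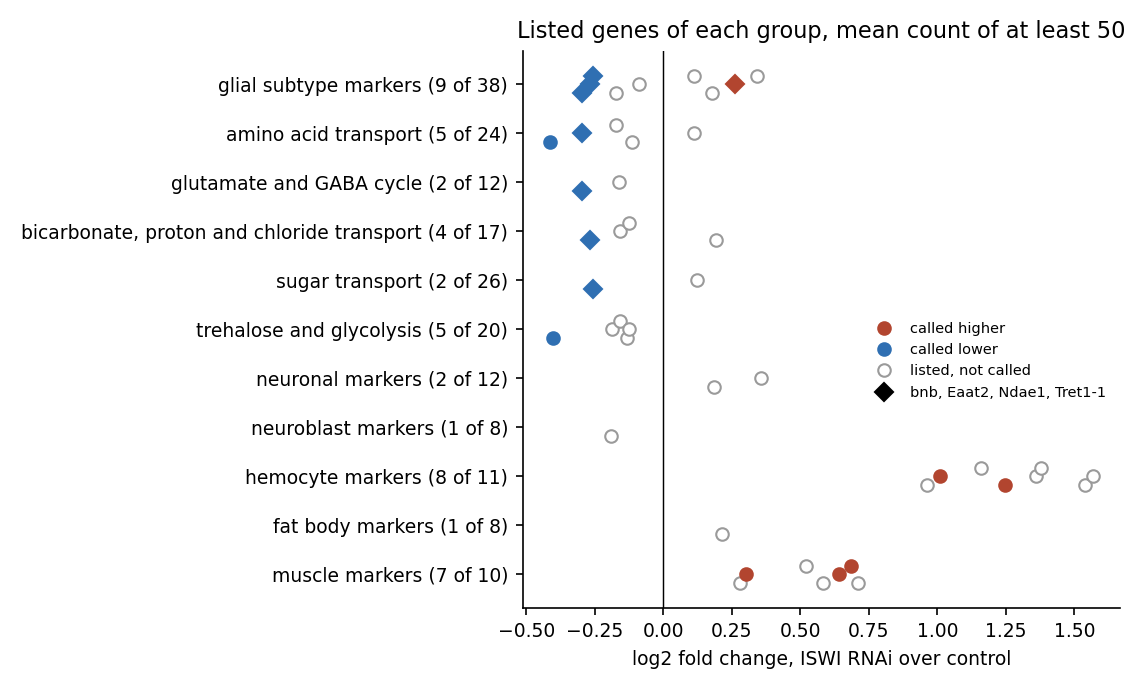
Each point is a gene of the authors' deposited table whose mean count is 50 or more, placed by its log2 fold change of ISWI RNAi over control (x axis) in its group (rows, with the number drawn of all genes in the group); filled points passed an adjusted p of 0.05 and diamonds are bnb, Eaat2, Ndae1 and Tret1-1. The calls in the transport groups are Eaat2, Ndae1 and Tret1-1, which were chosen for being called, and CG5535. All of them are lower, and no pattern of these groups is read from them. The listed hemocyte and muscle markers lie at 0.28 or above.

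Some markers of other cell types were called higher in the same comparison, where 2.06% of all genes tested were. The authors' deposited table lists 8 of 11 hemocyte (blood cell) markers, at log2 fold changes of 0.96 to 1.57, of which 2 passed: NimC1 and Pxn rose by 1.01 and 1.25. The other 6, such as Hml at 1.54 with an adjusted p of 0.166, did not pass. Of 10 muscle markers 7 were listed there, at 0.28 to 0.71, of which 3 passed: bt, Unc-89 and TpnC47D rose by 0.30, 0.64 and 0.69. The other 4, such as Mhc at 0.71 with an adjusted p of 0.401, did not pass. Their part in the values of the 4 genes was not tested. Of 12 neuronal markers Rbp9 and Syx1A were listed at 0.36 and 0.18, of 8 neuroblast markers dpn at -0.19 and of 8 fat body markers apolpp at 0.21 in the authors' deposited table, none past the threshold. None of 6 tracheal markers was listed. For markers that are not listed no level is known, so it cannot be said which of them were at 0, and the summed level of a list in each group is unknown.

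The 4 genes differ in structure. All are protein coding, and their deposited start and end match the Ensembl annotation of the same build. bnb is compact, with 4 annotated transcripts and 2 exon blocks over 3442 bases, and Ndae1 is the longest, with 10 transcripts and 18 exon blocks over 26016 bases. Eaat2 has 3 transcripts and 8 exon blocks over 7184 bases, and Tret1-1 has 2 transcripts and 9 exon blocks over 9015 bases. A fold change per gene does not show which of these transcripts moved. The span of bnb overlaps that of S6KL, and the span of Tret1-1 that of Roc2, each on the opposite strand. The Ndae1 span overlaps CG43800 and CG43799. The exons of the 4 genes share 0 bases with annotated exons of any other gene.

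The 2 nearest listed neighbours shared the sign of Ndae1 and of Tret1-1 and were opposite in sign to bnb and to Eaat2. Whether neighbours moved together was not tested. Within 20 kb of bnb 0 of 11 annotated genes, 7 of them protein coding, were listed in the authors' deposited table. Of all genes tested 21.5% were listed, but how many of the 11 were tested is unknown, so the shares are not alike. The nearest listed ones were CG7101 at -0.26 and CG7280 at -0.26 on the log2 scale, 32.9 and 48.7 kb away, opposite in sign to bnb and not past the threshold. Next to Eaat2, GABA-B-R3, a subunit of a metabotropic GABA receptor, lay 5.55 kb away at 0.16 and CG3862 lay 79.9 kb away at 0.21 in the authors' deposited table, neither of them called. The authors' deposited table has CG4502, 19.1 kb from Ndae1, lower by a log2 fold change of -0.42 (adjusted p 2.7e-07). It was the only called gene within 20 kb of any of the 4. Annotated genes within 20 kb numbered 11 around bnb, 3 around Eaat2, 11 around Ndae1 and 14 around Tret1-1. Of these 0, 1, 1 and 3 were listed. Of all genes tested 4.65% were called, so nothing is read from this 1 call. The next listed gene near Ndae1 was wg (wingless, a Wnt ligand), 57.8 kb away at -0.31 and not called. Beside Tret1-1, Buffy, of the Bcl-2 family, stood 4.71 kb away at -0.49 and CG34228 stood 13.4 kb away at -0.26, and the authors' deposited table gives them adjusted p of 0.332 and 0.466.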

How the data were processed

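RNA of pooled larval brains was read as single reads of 100 bases from strand-specific libraries, per the labels' protocols. The submitters' processing notes name STAR 2.5.0b, DESeq2 and build BDGP6; the counting step and its strand setting are not given in the sources used here. Per the file headers, the authors' table holds a mean normalised count (a signal: counts divided by size factors, averaged), a log2 fold change, a p-value and an adjusted p-value per gene, and a gene length. It holds 2366 genes with p under 0.1. Its adjusted p-values, as deposited, imply 10775 tests, and 54 genes with a mean count up to 2.43 took no part. Depth per library is unknown and no model was refitted, so the planned edgeR test for counts was not run.

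Implied standard errors, intervals, group levels and counts were computed with Python 3.11.15, pandas 2.3.3 and SciPy 1.17.1. Of these steps, the implied number of tests and the implied standard errors were tested on simulated data. The members and the 12 gene lists were chosen with earlier results of these data known. Of 181 gene names on the lists 178 matched an identifier. Named were the 4 genes, Iswi, all calls of each list or else up to 3 genes with the smallest adjusted p, their family members, the 2 nearest glial markers outside the threshold and the 2 nearest listed neighbours on the chromosome; other listed members of the lists were added afterwards. The alternatives were other thresholds, a mean count of at least 50, Bonferroni adjustment, centring, a t interval, and wider windows of count and distance. Replicates are called biological in the labels.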

Additional observations from a re-analysis of the deposited data

How the results depend on the processing

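No paired analysis was possible because the table holds no values per library, and for the same reason leaving out replicates, other size factors and other count filters were not run. The direction of bnb, Eaat2, Ndae1 and Tret1-1 held under each centring tried. Their 95% intervals excluded 0 with a t distribution on 5 degrees of freedom. Any gene called at an adjusted p under 0.05 here would do so, so this is no check of the 4. Centred on the median of all tested genes listed (-0.11), bnb stood at 0.37, Eaat2 at -0.19, Ndae1 at -0.16 and Tret1-1 at -0.15, the last with an interval that includes 0. Centred on listed genes of like mean count, bnb stood at 0.39 and Eaat2 at -0.17, and Ndae1 at -0.13 and Tret1-1 at -0.12, these last with intervals that include 0. At an adjusted p under 0.01, 2 of the 4 genes and 2 glial markers passed (Eaat2 and bnb), and 0 genes each of bicarbonate transport, sugar transport, hemocyte and muscle markers. At an adjusted p under 0.1, 2 genes passed in the glutamate and GABA cycle and 2 in trehalose and glycolysis. With Bonferroni adjustment 0 of the 4 genes passed, and 0 of the glial, amino acid, glutamate cycle, bicarbonate, sugar, hemocyte and muscle lists, while Treh still did. Within 50 kb of bnb 2 genes were listed, against 0 within 20 kb. With a count window of 2 times, bnb ranked 39th of 76 calls, Eaat2 55th of 118, Ndae1 100th of 145 and Tret1-1 114th of 145. Each rank as a share of the calls, and the other counts tried, stayed within 1.5 times. Depth per library is unknown. The smallest log2 fold change listed at like abundance was 0.09 in size around bnb and Eaat2, 0.10 around Ndae1 and 0.11 around Tret1-1, which are observed values and no fixed limits.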
